A study of Mus musculus with 6 samples.

Results

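The genes described here are Aim2 and the IFI200 genes of the interferon-inducible p200 cluster of mouse chromosome 1: Ifi203, Ifi204, Ifi205, Ifi206, Ifi207, Ifi208, Ifi209, Ifi211 and Ifi213. They were chosen by gene symbol, and all 10 were among the 36706 genes of the count tables. Their proteins, the PYHIN proteins, typically join a pyrin domain, which binds other pyrin domains, to one or more HIN domains, which bind DNA. AIM2 senses double-stranded DNA in the cytosol and recruits the adaptor ASC, which brings in caspase-1 for the maturation of IL-1β and IL-18 and the cleavage of gasdermin D. IFI204 is often likened to human IFI16 and has been linked to DNA sensing upstream of STING, and many genes of the cluster are induced by interferons in myeloid cells.

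RNA was sequenced from wild-type mouse dendritic cells grown from bone marrow with 20 ng/mL GM-CSF, a culture known to hold macrophages beside dendritic cells, with the medium changed on day 3 and day 5. Cells of both groups received interferon gamma (IFN-γ), and one group was also given 4-OI (4-octyl itaconate), an ester of the metabolite itaconate that enters cells. Each group had 3 libraries, and the comparison asked which genes 4-OI altered in cells given IFN-γ. With no library from cells without IFN-γ, induction by IFN-γ itself was not measured. The sample titles call the cells macrophages, whereas the cell type label and the culture protocol call them dendritic cells. The labels give no dose, no duration, no animal and no batch, and none says that replicates came from separate cultures. The p-values therefore rest on a spread between libraries that may be technical.

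With 4-OI, 7 of the 9 members that could be tested fell: Ifi203, Ifi205, Ifi206, Ifi207, Ifi209, Ifi211 and Ifi213. The 2 members with the highest mean level per length, Aim2 and Ifi204, did not pass the test. On the scale tested, TMM-scaled CPM, their group means differed by less than the SD between replicates. The tenth member, Ifi208, had too few counts to be tested and gave 33 counts over the IFN-γ libraries and 1 over the 4-OI libraries. Of all 14011 genes tested, 25.4% fell and 22.7% rose by the same rule (edgeR quasi-likelihood test, Benjamini-Hochberg adjusted p under 0.05).

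The members lie in one cluster, with the p200 genes Ifi214, Mndal and Ifi202b among them. In the deposited coordinates Aim2 opens the cluster on chromosome 1 at 173177105 to 173293606 on the plus strand, and Ifi205 closes it at 173839549 to 173859617 on the minus strand, a span of 683 kb. Between them follow Ifi206 (173296051 to 173318884, minus), Ifi213 (173393849 to 173426868, minus), Ifi209 (173458425 to 173475494, plus) and Ifi208 (173501194 to 173525959, plus). Next come Ifi207 (173550993 to 173569394, minus), Ifi204 (173574859 to 173594606, minus), Ifi211 (173723907 to 173740650, minus) and Ifi203 (173747966 to 173770432, minus). The processing notes name mm10, but these starts lie about 172 kb before those of the same genes in GRCm38, so the positions are given as deposited.

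Promoter windows of 300 bases, from 250 before to 50 after an annotated start, were read from the RefSeq annotation of GRCm38.p6 for 9 of the 10 members; Ifi204 had no entry. The windows were searched on both strands for the core of the interferon-stimulated response element (ISRE), GAAANNGAAA, a sequence that interferon-activated transcription factors are known to bind. The core was present in 7 of the 9 members, against 3.99% of all 27025 genes with a window. The following stretches of 45 bases are shown because they let the members be compared around that core. Each is on the strand of its gene, 5′ to 3′, with the core in capitals.
Ifi206, chr1:173491334-173491378, minus strand: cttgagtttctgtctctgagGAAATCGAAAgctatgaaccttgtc
Ifi213, chr1:173599321-173599365, minus strand: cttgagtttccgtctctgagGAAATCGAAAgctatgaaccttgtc
Ifi208, chr1:173673587-173673631, plus strand: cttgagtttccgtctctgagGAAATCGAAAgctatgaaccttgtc
Ifi207, chr1:173741826-173741870, minus strand: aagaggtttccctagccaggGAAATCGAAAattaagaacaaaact
Ifi211, chr1:173913059-173913103, minus strand: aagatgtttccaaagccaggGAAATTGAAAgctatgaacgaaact
Ifi205, chr1:174031865-174031909, minus strand: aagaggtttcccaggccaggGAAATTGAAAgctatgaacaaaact
Ifi203, chr1:173942503-173942547, minus strand: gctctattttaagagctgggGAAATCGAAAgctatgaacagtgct

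The core read GAAATCGAAA in 5 members and GAAATTGAAA in Ifi205 and Ifi211. Ifi208 and Ifi213 had the same 45 bases, and Ifi206 differed from each at 1 base. Ifi205 differed from Ifi211 at 4 bases and from Ifi207 at 6, but from Ifi206 at 20. In the 7 members the printed core began 35 bases (Ifi203) to 134 bases (Ifi205) before the start, Ifi203 having it in one of its 2 windows and Ifi205 having 2 matches. The gamma-activated site TTCNNNGAA, searched in the same way, was in 0 of the 9 members and in 9.55% of all genes.

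The other 2 members with a window, Aim2 and Ifi209, had no exact core. A run of letters 1 off the core is shown in capitals for each, for Ifi209 one of several and for Aim2 lying on the reverse strand. A run at most 1 letter off the core was in 35.4% of all windows, so such a run is common.
Ifi209, chr1:173630760-173630804, plus strand: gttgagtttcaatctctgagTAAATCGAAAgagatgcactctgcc
Aim2, chr1:173420533-173420577, plus strand: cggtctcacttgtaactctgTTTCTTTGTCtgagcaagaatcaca

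Aim2 had 6 annotated transcript starts spread over 105 kb in GENCODE, and its window does not cover all of them, the first and the last lying outside. Of the members with the core, Ifi213 had 5 starts over 18.9 kb, Ifi206 had 2 over 17.1 kb and Ifi208 had 3 over 4.01 kb. Their windows do not cover all of these starts either. Of the tested genes with a window, 421 held the exact core, of which 38.7% fell and 18.3% rose with 4-OI. Among the 10669 without it, 24.8% fell and 23.0% rose. A match is a description of the letters and was not tested as a binding site.

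Aim2 gave 108, 92.1 and 93.2 CPM (counts scaled to library size with TMM factors) in the 3 IFN-γ libraries and 111, 108 and 95.5 CPM in the 3 libraries with 4-OI. The groups overlapped, and the lowest 4-OI library lay below the highest IFN-γ library. The means were 97.7 ± 8.82 and 105 ± 8.31 CPM (SD, n = 3), a log2 fold change of 0.10 ± 0.10 (SE, 95% interval -0.13 to 0.33; edgeR adjusted p = 0.433). Scaled by total counts alone, the value was -0.16, beside a median of -0.27 over all tested genes under that scaling. A setting chosen after the data had been seen left out the library of each group that stood apart (IFN-γ replicate 1, 4-OI replicate 3). These were Aim2's highest IFN-γ library (108 CPM) and its lowest 4-OI library (95.5 CPM), so leaving them out raises its change. Aim2 was then called higher at 0.24 (edgeR adjusted p = 1.22e-05, within a range of 1.22e-05 to 0.702 over all settings tried).

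Ifi204, the mouse gene most often set beside human IFI16, was as level as Aim2. Its values were 29.8, 31.9 and 30.4 CPM with IFN-γ and 28.8, 32.9 and 31.2 CPM with 4-OI. Every IFN-γ library lay within the range of the 4-OI libraries. The log2 fold change was 0.01 ± 0.09 (SE, 95% interval -0.18 to 0.21; edgeR adjusted p = 0.908), and its sign turned in 4 of the 16 other settings without a call in any. For both genes the interval excludes the smallest change among the members that fell, that of Ifi207.

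Ifi206 and Ifi213 had the largest changes of the tested members. Both met the filter on low counts through their IFN-γ libraries, and the 4-OI libraries alone would not have met it. Ifi206 gave 4.91, 4.45 and 3.69 CPM with IFN-γ and 0.271, 0.326 and 0.494 CPM with 4-OI, from counts of 124, 131 and 87 and of 5, 9 and 12. It was 11.7-fold lower with 4-OI (log2 fold change -3.54 ± 0.25, SE; edgeR adjusted p = 2.01e-05). The groups were far apart, with the highest 4-OI library well under the lowest IFN-γ library.

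Ifi213 gave 3.17, 2.44 and 2.80 CPM with IFN-γ and 0.0543, 0.181 and 0.371 CPM with 4-OI, the last from 1, 5 and 9 counts. It was 12.9-fold lower (log2 fold change -3.69 ± 0.39, SE; edgeR adjusted p = 0.000165). The 4-OI libraries differed among themselves more than for any other tested member in relative terms, and without 4-OI replicate 3, the highest of them, the log2 fold change was -4.38. At these depths 3 counts correspond to 0.103 to 0.153 CPM, so the lowest of these libraries lay under the level of 3 counts.

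Ifi208, the member with the fewest counts, was counted 7, 19 and 7 times in the IFN-γ libraries and 0, 0 and 1 times in those with 4-OI. All 3 IFN-γ libraries lay above all 3 libraries with 4-OI. The depth-corrected ratio of the summed counts was 29.6 (exact 95% interval 4.96 to 1206, covering counting error only). When the filter on low counts was dropped, the log2 fold change was -4.44 (edgeR adjusted p = 0.000753). In that setting 8 of 10 members were lower, as were 3580 of all 23676 genes tested.

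**Figure D1:**
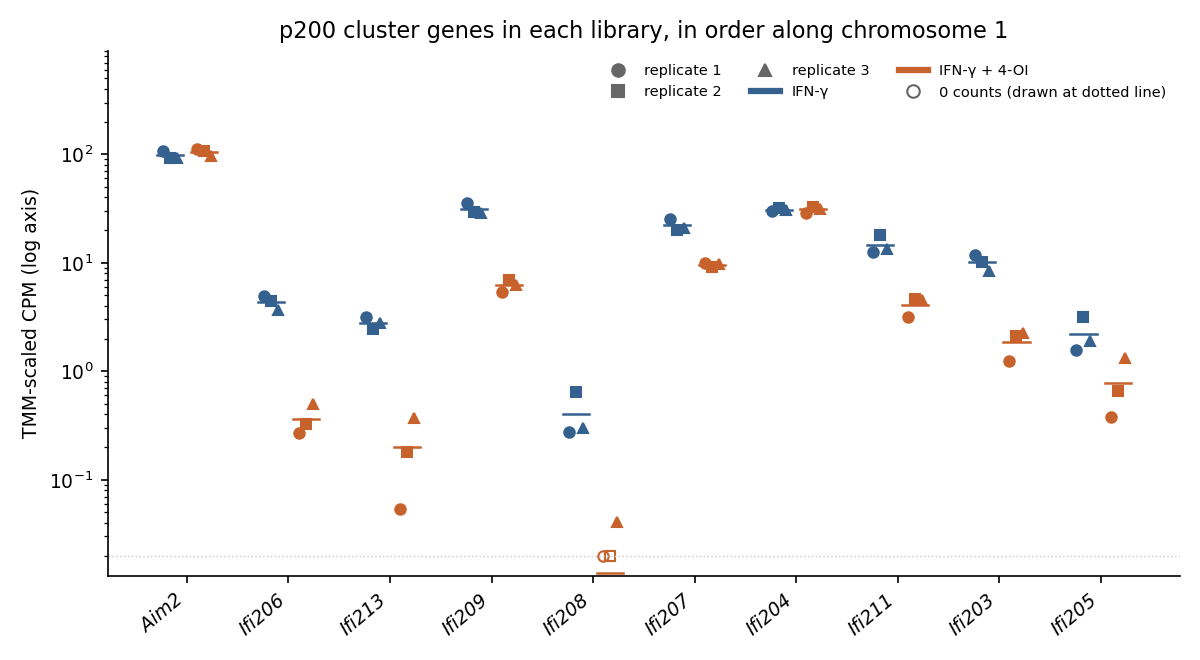
TMM-scaled CPM (log axis) of each of the 10 members in each of the 6 libraries, ordered along chromosome 1, with symbols for the replicate number, bars for group means and open symbols on the dotted line for 0 counts. The IFN-γ and 4-OI symbols intermix for Aim2 (92.1 to 111 CPM) and Ifi204 (28.8 to 32.9 CPM) and lie apart for the other 8 members.

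Ifi209, which had the highest mean CPM with IFN-γ among the members that fell, gave 35.5, 29.7 and 29.0 CPM with IFN-γ and 5.43, 6.95 and 6.18 CPM with 4-OI. It was 5.04-fold lower (log2 fold change -2.33 ± 0.13, SE; edgeR adjusted p = 7.71e-06). Its 2 groups lay far apart, with the highest 4-OI library well under the lowest IFN-γ library.

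Ifi203 gave 11.8, 10.2 and 8.41 CPM with IFN-γ and 1.25, 2.10 and 2.27 CPM with 4-OI. It was 5.31-fold lower (log2 fold change -2.41 ± 0.22, SE; edgeR adjusted p = 7.19e-05). The lowest IFN-γ library still lay well above the highest 4-OI library.

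Ifi211 gave 12.6, 17.9 and 13.5 CPM with IFN-γ and 3.15, 4.63 and 4.57 CPM with 4-OI. It was 3.53-fold lower (log2 fold change -1.82 ± 0.19, SE; edgeR adjusted p = 0.000152). Its highest library was IFN-γ replicate 2, as for Ifi205 and Ifi208, whereas IFN-γ replicate 1 was the highest for 5 of the 7 members that fell.

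Ifi207 changed least among the members that fell. It gave 25.4, 20.0 and 20.8 CPM with IFN-γ and 9.88, 9.12 and 9.68 CPM with 4-OI, 2.31-fold lower (log2 fold change -1.21 ± 0.12, SE; edgeR adjusted p = 0.000102). The 3 libraries with 4-OI were close to each other.

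Ifi205 rested on few counts and was the least certain of the calls. It gave 1.58, 3.16 and 1.91 CPM with IFN-γ and 0.380, 0.651 and 1.32 CPM with 4-OI. The groups did not overlap, though 4-OI replicate 3 came close to IFN-γ replicate 1. The log2 fold change was -1.47 ± 0.43 (SE, 95% interval -2.48 to -0.47; edgeR adjusted p = 0.0237). The call was lost without IFN-γ replicate 2 (-1.11, edgeR adjusted p = 0.0726), without 4-OI replicate 1 (-1.18, edgeR adjusted p = 0.0643) and without 4-OI replicate 2 (-1.33, edgeR adjusted p = 0.0909), over a range of adjusted p of 1.36e-07 to 0.0909. Without both libraries that stood apart, its lowest with IFN-γ and its highest with 4-OI, the value was -2.24.

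By size, all 7 members that fell were at least 2-fold lower, as were 11.1% of all tested genes, and 4 were at least 4-fold lower, against 2.85% of all tested genes. Of these 4, Ifi206 and Ifi213 met the filter on low counts through their IFN-γ libraries. The groups did not overlap, with 4-OI the lower, for 8 of the 10 members and for 30.6% of tested genes. Over the 9 tested members the median log2 fold change was -1.82, and over all tested genes it was -0.01. Within the 4-OI group, replicate 1 was the lowest library for 6 of the 7 members that fell, and replicate 3 the highest for 4 of them. These libraries also lay apart on the second principal component (12.4 and -14.4), which held 10.7% of the variance. The part of this in the members' values was not tested.

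Place in the cluster did not set apart the 2 members that were not called. Aim2 lies at one end and Ifi204 in the interior, between Ifi207, which was 2.31-fold lower, and Mndal, a further p200 gene that is no member. Mndal, the myeloid nuclear differentiation antigen-like gene, gave 39.2, 37.7 and 37.2 CPM with IFN-γ and 8.95, 9.27 and 9.43 CPM with 4-OI. It was 4.12-fold lower (log2 fold change -2.04 ± 0.08, SE; edgeR adjusted p = 2.31e-06). Its 2 groups lay far apart. Of the other cluster genes, Ifi214 was counted 3, 4 and 0 times in the IFN-γ libraries and 0 times in every 4-OI library, so the groups overlapped, and Ifi202b had 0 counts in all 6 libraries. The 3 nearest tested genes on either side lay 691 to 759 kb before and 1569 to 1630 kb after the members. Before the cluster, Dusp23 rose (log2 fold change 0.73, edgeR adjusted p = 0.00935) and Slamf8 and Gm35601 were not called, at 0.37 and -0.05. After it, Fh1, the gene of fumarate hydratase, fell (-0.57, edgeR adjusted p = 0.00707), Kmo, of kynurenine metabolism, fell (-2.77, edgeR adjusted p = 1.90e-06) and Opn3 was not called, at -0.20.

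**Figure D2:**
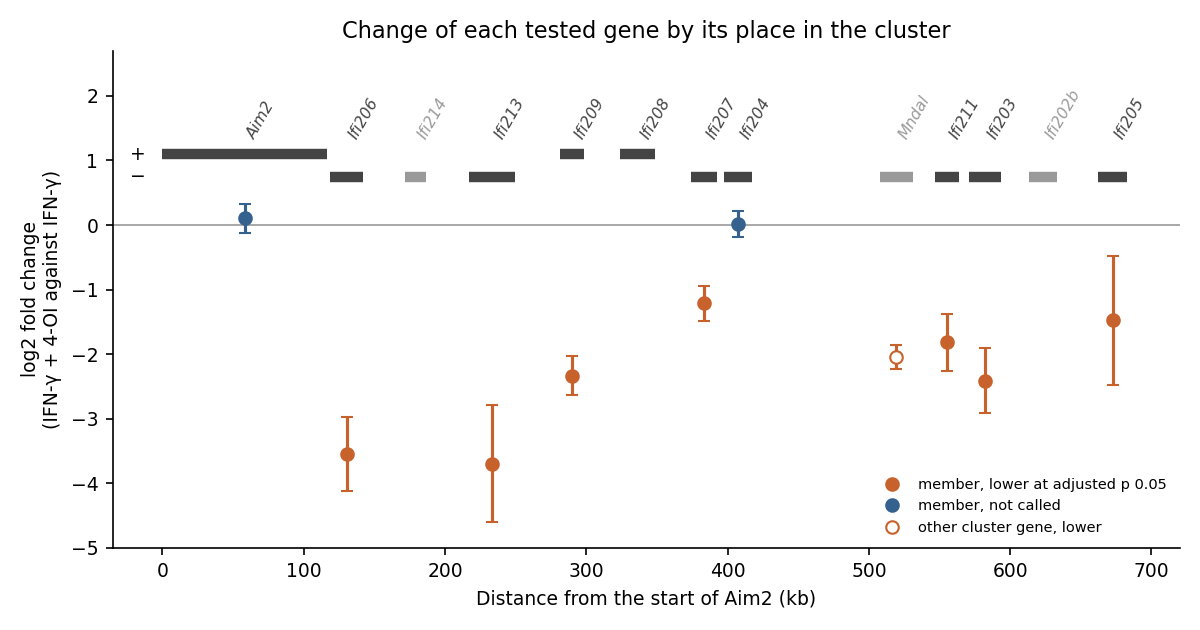
Log2 fold change of 4-OI against IFN-γ, with 95% intervals, of the 9 tested members and Mndal by distance from the start of Aim2 in kb, with gene bodies drawn above by strand (members dark, other cluster genes grey). The points of Aim2 (0.10) and Ifi204 (0.01) lie at the zero line and the other points between -1.21 and -3.69.

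With 7 members lower and Aim2 not called, the make-up of the family's counts differed between the groups. Counts grow with gene length, and Aim2 has the longest deposited length of the members, so a share of counts is not a share of molecules. Aim2 held 46.3%, 43.3% and 45.7% of the summed counts of the 10 members with IFN-γ and 69.3%, 65.5% and 63.0% with 4-OI. Every 4-OI library was above every IFN-γ library. Aim2 and Ifi204 together went from 59.4% ± 1.17 to 85.4% ± 1.86 (SD, n = 3). The log2 ratio of Aim2 to the 9 IFI200 genes, which does not depend on how libraries are scaled, was -0.28 ± 0.09 with IFN-γ and 0.96 ± 0.21 with 4-OI (SD, n = 3). The difference of 1.24, or 2.36-fold, had a two-sided exact permutation p of 0.1, the smallest that 3 against 3 libraries allow. With TPM in place of counts, the difference was 1.07.

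The summed counts of the family gave 233, 212 and 204 CPM with IFN-γ and 160.4, 165 and 152 CPM with 4-OI. The groups did not overlap. The sum was 1.36-fold lower with 4-OI (log2 fold change -0.45 ± 0.08, SE; edgeR adjusted p = 0.00310), a smaller change than that of any member that fell. Aim2 alone held 45.1% ± 1.57 of the sum with IFN-γ and 65.9% ± 3.19 with 4-OI (SD, n = 3). Longer genes weigh more in such a sum of counts.

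**Figure D3:**
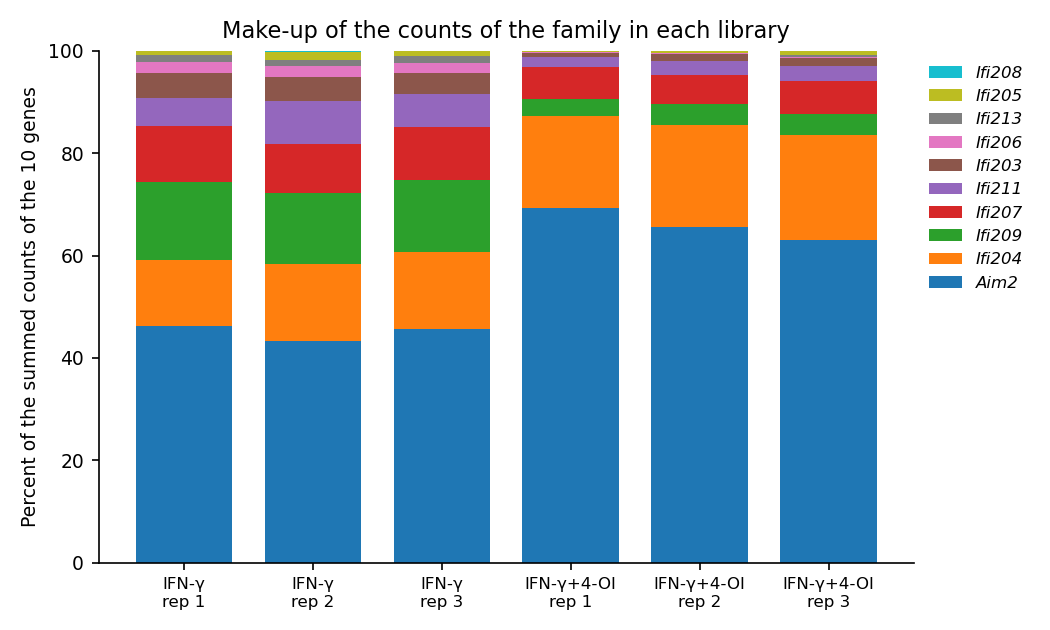
Stacked bars of each member's percent of the summed counts of the 10 members in each library. The Aim2 segment covers 43.3% to 46.3% of the bars with IFN-γ and 63.0% to 69.3% of those with 4-OI.

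Levels can be compared between genes only per length, for which the deposited TPM were used. With IFN-γ, Ifi204 had the highest mean level at 29.3 ± 2.61 TPM, followed by Aim2 at 23.0 ± 4.84, Ifi209 at 20.9 ± 4.91, Ifi211 at 16.7 ± 2.10 and Ifi207 at 14.1 ± 3.59 TPM (SD, n = 3). The range of each of these 5 overlapped that of its neighbour in the order. Within each library, however, Ifi204 was above Aim2 and Aim2 above Ifi209, while the order of Ifi209, Ifi211 and Ifi207 differed between libraries. Ifi204, at 27.7 to 32.3 TPM, did not overlap Ifi209, at 18.0 to 26.6 TPM. A gap followed, after which Ifi203 had 3.54, Ifi206 2.85 and Ifi205 2.61 TPM, again overlapping, and then Ifi213 with 0.744 and Ifi208 with 0.166 TPM.

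With 4-OI the order began with the same 2 genes, Ifi204 at 22.7 ± 2.49 and Aim2 at 18.8 ± 3.07 TPM. Ifi204 was above Aim2 in each of the 3 libraries, though their ranges overlapped, and both lay above every other member. Ifi207, Ifi211 and Ifi209 followed at 4.62, 3.61 and 3.13 TPM, and the other 5 members had under 1 TPM each, from Ifi205 at 0.695 to Ifi208 at 0.00396 TPM. TPM carry no scaling between libraries, so the lower TPM of Aim2 and Ifi204 with 4-OI is not the difference that was tested. The deposited length of Aim2, 9900 bases, merges all its exons, and its level per length depends on that choice.

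The members are close paralogs, and the treatment of reads that match several of them is not given in the sources used here. In GENCODE transcripts, Aim2 shared no stretch of 50, 100 or 150 bases with any other cluster gene. Ifi211 shared the most: 56.9% of its stretches of 100 bases occurred elsewhere in the cluster, 37.2% in Ifi205 and 19.6% in Ifi204. For Ifi209 the share was 16.9%, all of it with Ifi214. It was 15.0% for Ifi205, 10.7% for Ifi204 and 7.74% or less for the other 5 IFI200 members. With stretches of 50 bases the shares were larger: 72.8% for Ifi211, 33.4% for Ifi209, 20.8% for Ifi208 and 5.39% to 19.2% for the rest. With 150 bases they were smaller, at 46.4% for Ifi211, 12.6% for Ifi205 and 9.28% or less for the rest. How many reads were exchanged between members was not measured.

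As an alternative chosen after the data had been seen, counts were summed over cluster genes that share sequence. A sum does not move with reads exchanged inside it. The sum of Ifi206, Ifi208 and Ifi213 was 12.6-fold lower with 4-OI (edgeR adjusted p = 2.51e-05), and that of Ifi209 and Ifi214 was 5.06-fold lower (edgeR adjusted p = 7.76e-06). The sum of Ifi204, Ifi205 and Ifi211 was 1.33-fold lower (log2 fold change -0.41 ± 0.11, SE; edgeR adjusted p = 0.0149). Ifi204 had most of the counts in that sum. Mndal, outside that sum, held 6.41% of the 100-base stretches of Ifi211, 2.59% for Ifi205 and 1.13% for Ifi204. Reads exchanged with Mndal could therefore still move the sum.

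**Figure D4:**
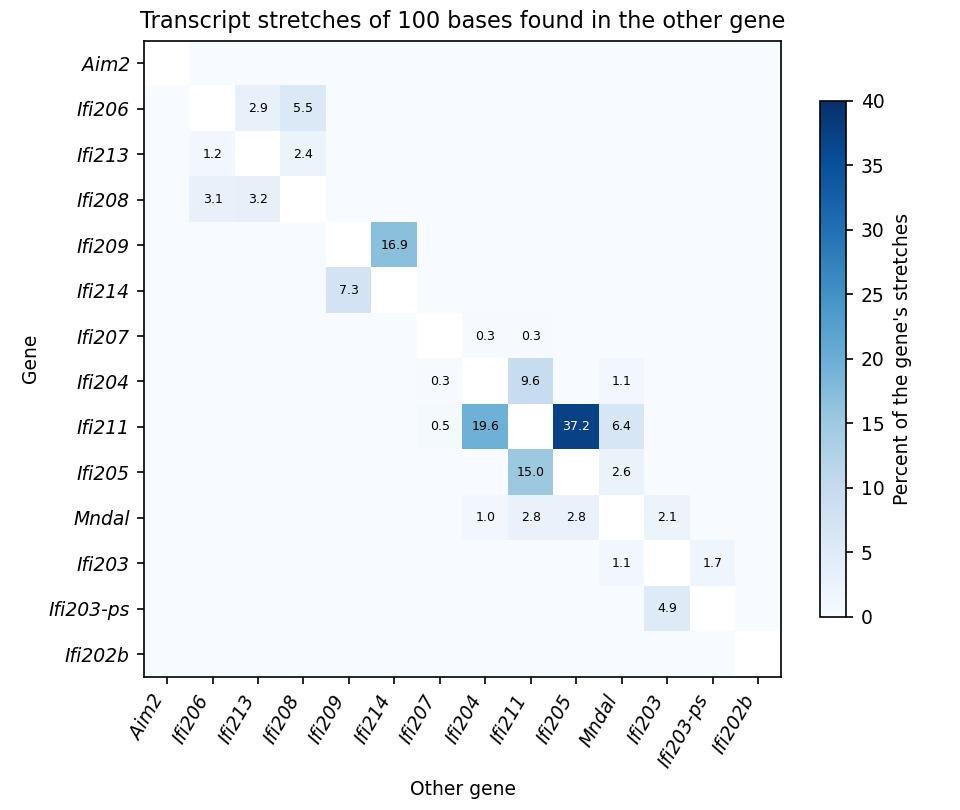
Percent of each gene's distinct transcript stretches of 100 bases (row) that also occur in another cluster gene (column), from GENCODE transcripts, with values printed where they are not 0. The darkest cells join Ifi211 to Ifi205 (37.2%) and to Ifi204 (19.6%), and the row of Aim2 is empty.

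Of the 14 genes listed as partners of the AIM2 inflammasome, 8 were lower and 5 higher, beside 25.4% and 22.7% of all tested genes. The 14 partners had a median log2 fold change of -0.37. For these genes CPM are means ± SD over 3 libraries and log2 fold changes carry their SE. Pycard, which encodes the adaptor ASC, fell from 125 ± 23.9 to 51.1 ± 5.26 CPM (log2 fold change -1.29 ± 0.15; edgeR adjusted p = 0.000292). Gsdmd, which encodes the pore-forming gasdermin D, fell from 101 ± 11.7 to 58.3 ± 3.88 CPM (-0.80 ± 0.11; edgeR adjusted p = 0.000598). Casp1, the gene of the protease, rose from 63.5 ± 8.52 to 110 ± 7.22 CPM (0.79 ± 0.12; edgeR adjusted p = 0.000852), so the adaptor and the protease moved in opposite directions and the sensor was not called. The 3 smallest adjusted p belonged to guanylate-binding and immunity-related GTPases known to open bacteria to AIM2: Gbp5 was 4.32-fold lower, Gm12250, the gene also called Irgb10, 5.92-fold lower and Gbp2 2.82-fold lower (edgeR adjusted p = 2.31e-06, 1.06e-05 and 1.28e-05).

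The others that rose were Panx1, a channel gene, by 1.70 on the log2 scale, Ninj1, which encodes a protein of membrane rupture, by 1.13, and the cytokine genes Il18 and Il1b by 0.56 and 0.44 (edgeR adjusted p = 0.0200 and 0.0307). The call of Il18 was lost without IFN-γ replicate 2 (0.54), without 4-OI replicate 3 (0.42) and with total counts (0.29). That of Il1b was lost without 4-OI replicate 1 (0.50), 2 (0.47) or 3 (0.37) and with total counts (0.18). Under total counts 3 partners were called higher, and without both libraries that stood apart 6 were.

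Of 17 tested genes of cytosolic DNA sensing and DNA disposal, 6 were lower, 1 was higher and 10 were not called. Of all tested genes, 25.4% were lower and 22.7% higher. The median of the list was -0.20. Zbp1, a sensor of Z-form nucleic acids, was 5.32-fold lower (edgeR adjusted p = 3.59e-06), Irf7, a transcription factor of interferon genes, 4.22-fold (edgeR adjusted p = 3.82e-06) and Ikbke, a kinase, 1.69-fold (edgeR adjusted p = 0.000879). Sting1, the adaptor of the cGAS pathway, fell from 28.4 ± 2.40 to 18.2 ± 1.05 CPM (log2 fold change -0.65 ± 0.10; edgeR adjusted p = 0.000991). Cgas, the other main cytosolic DNA sensor, was not called, at -0.27 ± 0.13 (edgeR adjusted p = 0.137), and was called lower with total counts (-0.53). The gene that rose, Dnase2a, did so by 0.37 (edgeR adjusted p = 0.0432). It was not called without IFN-γ replicate 3 (0.45), without 4-OI replicate 1 (0.41), 2 (0.37) or 3 (0.36), or with upper quartile (0.36) or total-count (0.12) scaling. The list had 13 lower with total counts and 11 without both libraries that stood apart.

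**Figure D5:**
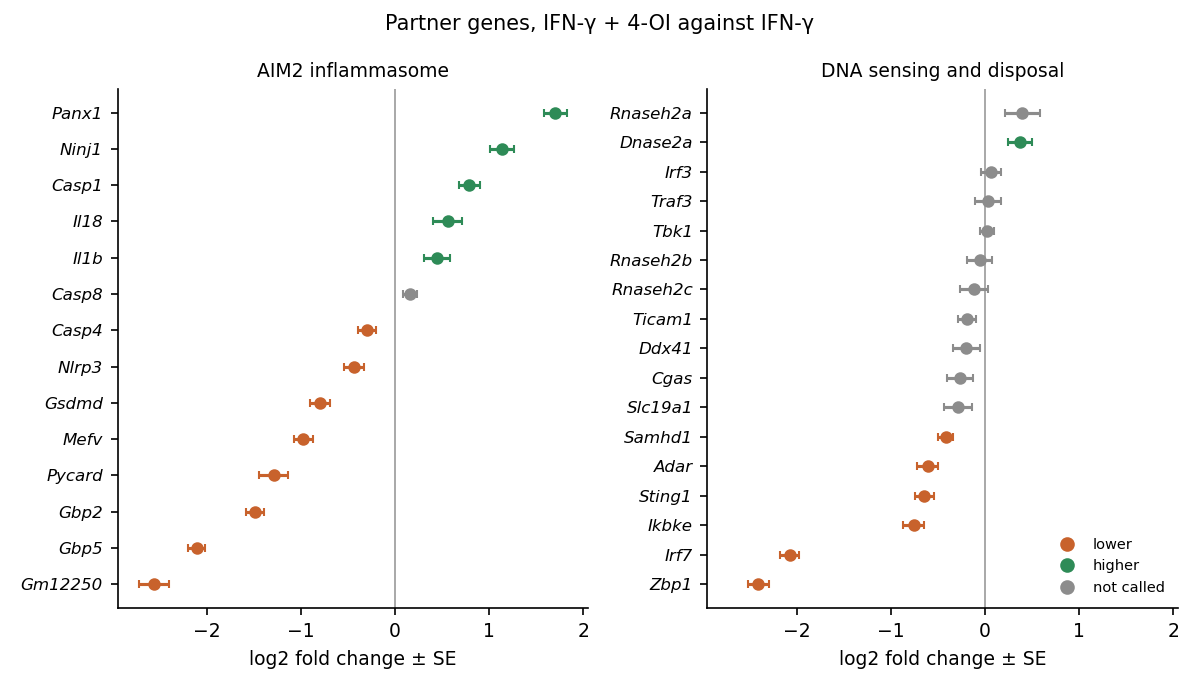
Log2 fold change ± SE of 4-OI against IFN-γ for the tested genes of 2 lists, the AIM2 inflammasome partners and the genes of DNA sensing and disposal, coloured by call (lower, higher or not called). Casp1 (0.79) and Panx1 (1.70) lie above zero, while Pycard (-1.29) and Sting1 (-0.65) lie below.

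Of 15 genes of interferon receptors and signalling, 11 were lower and 0 higher, at a median of -0.45. Over all tested genes, 25.4% were lower and 22.7% higher. In the list, 8 to 10 were lower when 1 library was left out. Irf9 and Stat2, transcription factors of interferon signalling, were 2.03-fold and 2.16-fold lower (edgeR adjusted p = 3.81e-05 and 5.35e-05). Jak1, a kinase of the receptors, was not called, at 0.12.

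The guanylate-binding proteins and the OAS genes, other interferon-inducible families, give a scale for the members. All 8 tested genes of the first family fell, with a median of -2.06; Gbp6, Gbp5 and Gbp8 were 5.45-fold, 4.32-fold and 4.01-fold lower. Of the 8 tested OAS genes 6 were lower and 1 higher, beside 25.4% and 22.7% of all tested genes. Oas2, Oas3 and Oasl2 were 8.83-fold, 9.29-fold and 8.15-fold lower. Oasl1 was not called, at 0.25. Each family thus had a spread of its own, and whether the members differed from either was not tested.

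By root mean square distance of centred log2 CPM profiles over the 6 libraries, the genes outside the list nearest to the mean of the tested members were Gtse1 (0.0409), Cx3cr1 (0.0847), Stk39 (0.0913), Ccdc102a (0.0947) and Ms4a4a (0.105). Their log2 fold changes lay between -1.70 and -1.85. Those nearest to Aim2 were Ascc2 (0.0204), Jak1 (0.0283), Eps8l1 (0.0304), Fnbp4 (0.0305) and Dusp6 (0.0308), none of them called. Fold changes near those of the members follow from this choice by profile and are no separate result.

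The libraries held 19656368 to 29244717 counts, and the first principal component, with 79.5% of the variance, separated the groups. Scaled by total counts alone, 1719 genes were called higher and 5452 lower, in place of 3181 and 3555, while 7 members were lower under both. Markers of several cell types also moved, beside 25.4% of all tested genes that fell and 22.7% that rose. Those of mast cells and basophils fell in 6 of 6 tested genes, with a summed level of 302 to 345 CPM with IFN-γ and 90.0 to 98.1 CPM with 4-OI, with Mcpt4 at 0. Conventional dendritic cell markers, all of which were detected, fell in 9 of 13 tested and rose in 1 (summed 2110 to 2128 and 1649 to 1668 CPM), and monocyte markers fell in 7 of 10 and rose in 1 (5721 to 7108 and 5236 to 6352 CPM). Neutrophil markers fell in 9 of 14 and rose in 2 (5841 to 7347 and 5643 to 6474 CPM), and macrophage markers fell in 3 of 14 and rose in 4 (5744 to 6680 and 8317 to 8716 CPM). Plasmacytoid dendritic cell markers summed to 191 to 250.5 and 164 to 180 CPM (1 of 2 tested fell, with Siglech at 0), those of T and NK cells to 8.27 to 12.4 and 4.81 to 6.26 CPM (2 of 2 fell), and those of B cells to 9.81 to 10.5 and 7.81 to 9.05 CPM (0 of 5 called). In these bulk samples fewer cells of a type and less RNA per cell cannot be told apart, and the part of cell make-up in the members' values was not tested.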

How the data were processed

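Per the labels' protocols, libraries for RNA-seq were prepared from total RNA by a stranded mRNA method. The authors deposited 1 table per library with counts, TPM and FPKM of 36706 genes, per the file headers. HISAT2 and mm10 are named in the submitters' processing notes. How reads were counted, with which strand setting, read length and rule for reads with several matches, is not given in the sources used here. The deposited counts were whole numbers and were tested as deposited. The deposited TPM served for levels per length, and the deposited FPKM only for a check: 100% of both could be recomputed from counts and lengths to a relative tolerance of 1e-05.

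The comparison used edgeR 4.0.16 (R 4.3.3): filterByExpr with a minimum count of 10, TMM factors, robust quasi-likelihood test, Benjamini-Hochberg adjustment over 14011 genes at 0.05. CPM use TMM-scaled library sizes. The script was tested on simulated data. At the deposited depth of 19656368 to 29244717 counts, 3 counts amount to 0.103 to 0.153 CPM, a floor for counting error only. No 2 libraries agreed within sampling noise (lowest chi-square per gene 4.34).

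Named genes are all 10 members, the 3 tested genes with the smallest adjusted p of each other list, and the 5 genes nearest in profile to the members' mean and to Aim2. Pycard, Casp1, Gsdmd, Panx1, Ninj1, Il18, Il1b, Sting1, Cgas, Dnase2a, Oasl1, the neighbours and marker genes were named after their values were seen. The members and lists were chosen with earlier results of these data known. Of the listed symbols, Mnda, Ifi203-ps, Gm16340, Gm4955, Pydc5, Gbp11 and Oas1b are not analysed here, and some results of listed genes are not reported here. Alternatives were RLE, upper quartile and no factors, no filter, at least 1 CPM in 3 libraries, DESeq2 1.42.0, limma-voom (limma 3.58.1), the replicate number as a block, each library left out, protein-coding genes only and, for the count of members, an adjusted p of 0.01. Promoter windows came from RefSeq (GRCm38.p6) and transcripts from GENCODE of the same assembly.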

Additional observations from a re-analysis of the deposited data

How the results depend on the processing

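The 6 calls other than Ifi205 kept their direction and their side of the threshold in all 16 settings tried, DESeq2 and limma-voom included, and 6 to 7 members were lower when 1 library was left out. Under total-count scaling, 1719 genes were higher and 5452 lower, and the log2 fold changes of Aim2, Ifi204, Ascc2, Jak1, Eps8l1, Fnbp4 and Dusp6 turned to -0.16, -0.24, -0.13, -0.13, -0.20, -0.18 and -0.19; no factors, so the median of all genes moved. Leaving out 1 library gave -0.0269 to 0.0688 for Ifi204 (-0.01 without IFN-γ replicate 1, -0.0269 without 4-OI replicate 2) and -2.05 to -1.11 for Ifi205, the causes of which were not tested. With both IFN-γ replicate 1 and 4-OI replicate 3 left out, a setting chosen after the data had been seen, Ifi204 was at -0.0044. In that setting 1 member, Aim2, was higher (0.24). The libraries left out were Aim2's highest with IFN-γ and its lowest with 4-OI. The cause was not tested. Replicate numbers are shared between groups, but deviations of same-numbered libraries correlated at 0.26, -0.10 and 0.19, so they were not taken to pair the samples; with the replicate block 3588 genes were higher and 3925 lower, and 7 members were lower, and Aim2 was at 0.10. Not every library correlated best with its own number. Depth limits Ifi208, Ifi213 and Ifi205 most, at 0 to 93 counts in a library.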
